A study of Mus musculus with 6 samples.

Results

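The erythroid programme is the set of genes that builds a red blood cell, and its level was followed in stem and progenitor cells of mice given TP-3654 or vehicle. A set of 39 genes was chosen by function: 6 transcription factors, 4 adult globins, 7 enzymes of haem synthesis, 4 genes of iron uptake and mitochondrial import, 6 genes of the membrane skeleton and its anchors, 7 surface and blood group proteins, and 5 others, 4 enzymes and Trim10. Of these 39, 37 matched a row among the 15845 genes of the count table, and all 37 had at least 10 counts in total and were tested. Hba-a2 and Hbb-bs matched no row and were not analysed here.

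Mice were dosed for 6 weeks with TP-3654, which the series describes as acting on the kinase Pim1, at 150 mg/kg/day, or with vehicle (PBS). All mice were C57BL/6 and Mx1Cre; Jak2VF/VF, so both groups are homozygous for the conditional Jak2 V617F allele and carry a Cre enzyme whose promoter interferon switches on in blood and other cells. Whether and when Cre was induced is not given in the sources used here. Mice without the allele were not analysed here, so the comparison is one of drug within mutant mice. RNA was sequenced from LSK cells of the bone marrow, the lineage-depleted fraction sorted for Sca1 and c-Kit, with 3 libraries per group that the design text describes as biological replicates.

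Red cell formation is switched on in megakaryocyte-erythroid progenitors by GATA1, which works in a complex with TAL1 and with its cofactor FOG1 (Zfpm1), and by KLF1, which opens the adult beta-globin gene. Erythropoietin keeps the cells alive through its receptor and JAK2, and an activated JAK2 is the usual lesion of polycythaemia vera, a disease with too many red cells. Some genes for surface proteins, carbonic anhydrase and the membrane skeleton come on early in committed progenitors. Globins, Alas2, band 3 (Slc4a1) and other genes of these groups reach their high levels in later erythroblasts. LSK cells are mostly upstream of these stages. In bulk RNA, fewer cells of a type and less RNA per cell cannot be told apart.

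The 6 libraries held 20582057 to 25315596 counts, and 15138 to 15529 genes had at least 1 count. Levels are given in CPM, read counts scaled to a common library size with TMM factors, and 3 counts, the limit of detection used, correspond to 0.116 to 0.153 CPM. Markers of the sort were present in every library: Kit had 434, 492 and 579 CPM with TP-3654 and 365, 377 and 376 CPM with vehicle. Of 8 genes that mark lineage-positive cells, 4 had under 10 counts in total, and their summed level was 48.1 to 63.0 CPM with TP-3654 and 31.9 to 71.2 CPM with vehicle. Libraries of the same group stood apart in the erythroid genes, TP-3654 replicate 3 most of all, and results are given with and without it.

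The promoters of Klf1, Rhd and the globins Hba-a1 and Hbb-bt are shown because Klf1 and Rhd were far below the other libraries in TP-3654 replicate 3 while the globins were not, as described further on. Each is the 250 bases before the annotated RefSeq start on GRCm38.p6, read 5′ to 3′ on the gene's strand, with GATAA or its reverse complement TTATC, the core that GATA factors bind, in capitals. They lie at chr8:84901732-84901981 on the plus strand (Klf1), chr4:134864286-134864535 on the plus strand (Rhd), chr11:32283422-32283671 on the plus strand (Hba-a1) and chr7:103813924-103814173 on the minus strand (Hbb-bt).
Klf1: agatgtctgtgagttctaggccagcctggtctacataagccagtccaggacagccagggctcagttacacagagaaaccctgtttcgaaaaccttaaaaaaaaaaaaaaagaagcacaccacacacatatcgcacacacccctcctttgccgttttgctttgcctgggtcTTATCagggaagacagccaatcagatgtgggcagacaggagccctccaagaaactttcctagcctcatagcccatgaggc
Rhd: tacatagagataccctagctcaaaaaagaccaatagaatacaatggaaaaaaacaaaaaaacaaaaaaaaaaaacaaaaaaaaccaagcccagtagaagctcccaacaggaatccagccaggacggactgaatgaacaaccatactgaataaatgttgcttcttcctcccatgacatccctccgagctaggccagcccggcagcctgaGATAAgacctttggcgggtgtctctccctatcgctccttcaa
Hba-a1: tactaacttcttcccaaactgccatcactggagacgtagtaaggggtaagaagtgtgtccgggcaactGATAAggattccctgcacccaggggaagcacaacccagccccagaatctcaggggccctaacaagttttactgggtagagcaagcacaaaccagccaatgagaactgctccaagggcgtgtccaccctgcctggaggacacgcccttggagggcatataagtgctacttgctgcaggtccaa
Hbb-bt: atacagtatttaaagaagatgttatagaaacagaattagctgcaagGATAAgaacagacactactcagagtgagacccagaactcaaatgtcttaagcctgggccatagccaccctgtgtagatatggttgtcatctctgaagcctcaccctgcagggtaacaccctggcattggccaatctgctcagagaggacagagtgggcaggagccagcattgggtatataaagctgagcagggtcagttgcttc
Each of these 4 windows holds 1 copy of the GATA core. Windows were found for 29 of the 37 genes, 42 windows in all since some genes have several starts, and some of these starts lie inside the gene. GATAA on either strand stood in 18 of the 42 (42.9%), against 22.6% of all 32851 windows in the reference. The KLF-type motif CCNCNCCC, on either strand, stood in 61.9% of the 42 and in 45.9% of all, and the E-box CANNTG, which TAL1 complexes bind, in 54.8% and 66.2%. The motifs can overlap one another, and a match of letters is a description of the window and not a measured binding site.

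No erythroid gene passed the test between TP-3654 and vehicle. In edgeR's quasi-likelihood test with Benjamini-Hochberg adjustment over 15267 genes, 0 of the 37 were called at an adjusted p under 0.05 (smallest 0.283), as were 0% of all genes, and DESeq2 called 0 of the 36 to which it gave an adjusted p (Slc4a1 had none), against 5.05% of all genes with an adjusted p in that tool. At an unadjusted p under 0.05 there were 2 of the 37, against 15.7% of all genes: 1 was higher with TP-3654 (Slc25a37) and 1 lower (Icam4). Log2 fold changes of TP-3654 over vehicle were above 0 for 15 genes and below 0 for 22, with a median of -0.15, where the median of all genes tested was 0.02. Without TP-3654 replicate 3 the split was 25 above and 12 below, the median was 0.13 against 0.01 for all genes, and again 0 of 37 were called, where 0.245% of all genes were (0.166% higher and 0.0796% lower). In that fit 1 of the 37 was higher (Slc25a37) and 2 were lower (Gata1 and Sphk1) at an unadjusted p under 0.05, against 7.05% and 4.62% of all genes, 11.7% together. The median thus had the opposite sign with and without that library, and it was 0.07 without vehicle replicate 1.

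The erythroid genes differed widely between libraries of the same group. TP-3654 replicate 3 was the lowest of the 6 libraries for 27 of the 37 genes, against 30.9% of all genes. In 13 of the 37 its level was under 25% of the mean of the other TP-3654 libraries, which held for 4.6% of all genes, and in 16 it was under 50%, against 9.3%. At the other end, TP-3654 replicate 1 was the highest library for 17 genes (12.2% of all genes) and vehicle replicate 1 for 15 (16.7% of all genes). Both groups therefore held a library that was high in these genes, and 1 group held a library that was very low. These libraries also differed in genes of other lineages. The summed level of 10 mast cell and basophil genes was 127.3 CPM in TP-3654 replicate 3, with 358 and 509 CPM in the other TP-3654 libraries, against 459 to 558 CPM in vehicle libraries. All 10 of these genes had counts in every library. Prss34, Mcpt8, Ms4a2, Fcer1a, Hdc and Il1rl1 were lowest in TP-3654 replicate 3, and Cpa3, Gzmb, Tpsb2 and Cma1 were not. The summed level of 8 granulocyte-monocyte progenitor genes was 2328 to 7537 CPM with TP-3654, lowest in replicate 3, against 10330.0 to 13260.0 CPM with vehicle. The summed level of 8 mature neutrophil genes was 15.2 to 60.4 CPM with TP-3654, against 164.7 CPM in vehicle replicate 1 and 44.9 and 37.8 CPM in the other vehicle libraries. The summed level of 10 macrophage genes was 55.3 to 59.7 CPM with TP-3654, against 90.8 CPM in vehicle replicate 1 and 43.1 and 32.4 CPM in the other vehicle libraries. Within that list C1qb, a complement gene of macrophages, had 4.70, 4.68 and 8.21 CPM in TP-3654 replicates 1 to 3, against 14.3, 1.03 and 0.827 CPM in vehicle replicates 1 to 3. The summed macrophage and neutrophil levels were thus highest in the vehicle library that was also high in erythroid genes. Every neutrophil gene of the list but Cxcr2, and every macrophage gene but Cd163 and Mrc1, was highest there too. Cd163, the macrophage gene of highest level, had 18.9 CPM in vehicle replicate 1, against 22.6 and 20.1 CPM in the other vehicle libraries. Cxcr2, the neutrophil gene of highest level, had 25.3 CPM there, against 27.5 and 26.45 CPM. The summed level of 12 megakaryocyte genes was 463 to 548 CPM with TP-3654 and 423 to 436 CPM with vehicle, led by Itga2b. Ppbp, a platelet chemokine of that list, had 4.89, 3.29 and 0.408 CPM in TP-3654 replicates 1 to 3, against 5.32, 3.33 and 4.13 CPM in vehicle replicates 1 to 3. Pf4, the platelet factor, had 45.3, 21.8 and 14.5 CPM in TP-3654 replicates 1 to 3, against 49.3, 45.5 and 41.0 CPM in vehicle replicates 1 to 3. Both platelet genes were lowest in TP-3654 replicate 3, although the megakaryocyte sum was not. The part of these differences in the erythroid result was not tested.

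**Figure D1:**
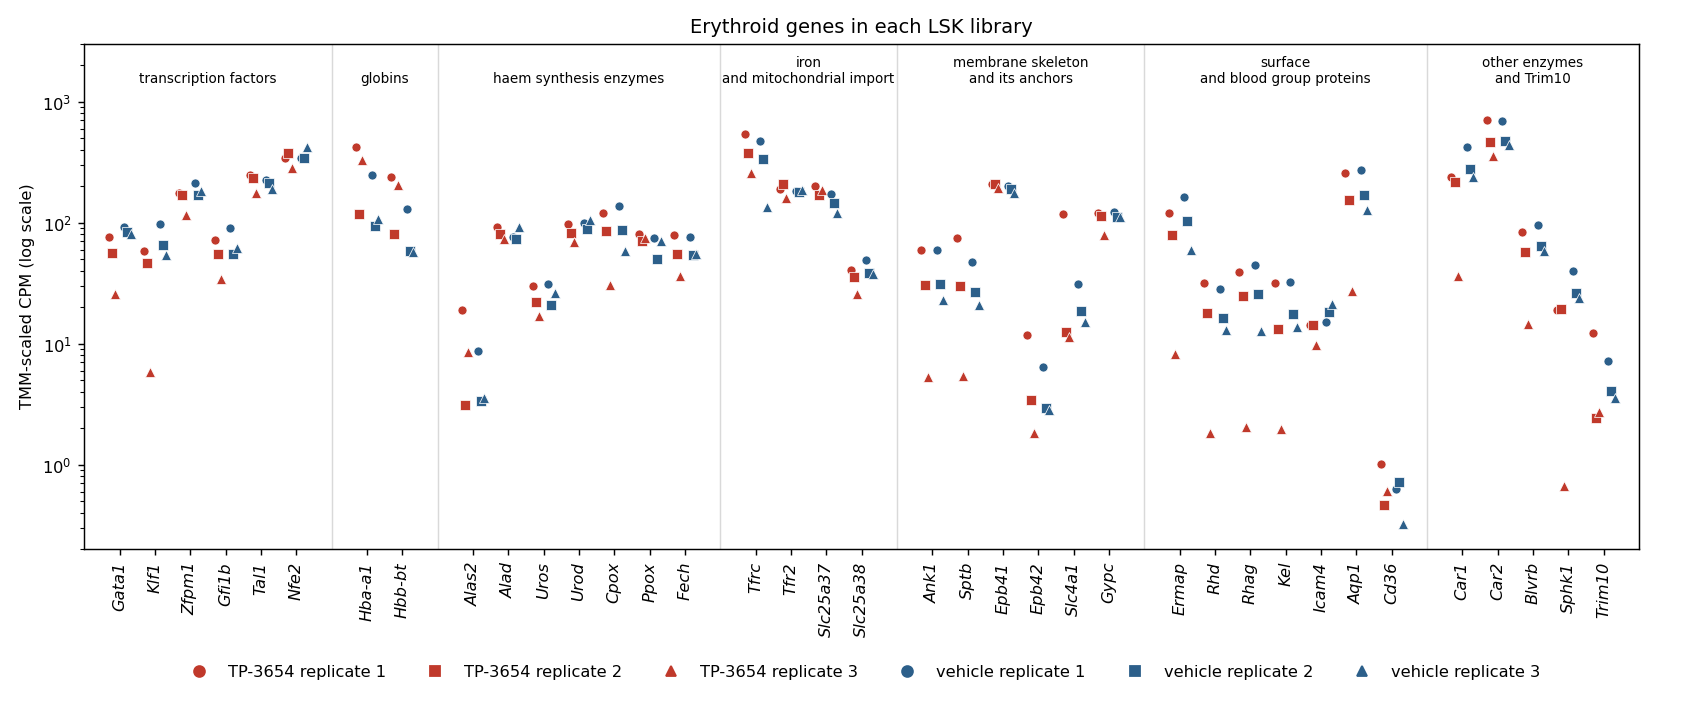
Level of each erythroid gene in every library, in TMM-scaled CPM on a log axis, with TP-3654 libraries to the left of vehicle libraries for each gene and a marker shape per replicate. TP-3654 replicate 3 is the lowest of the 6 for 27 of the 37 genes.

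Among the transcription factors, Gata1, the master regulator of the lineage (chrX:7959260-7976663 on GRCm38, as for all genes here), had 76.1, 56.3 and 25.8 CPM in TP-3654 replicates 1 to 3, against 93.0, 83.9 and 81.1 CPM in vehicle replicates 1 to 3. The groups did not overlap, and replicate 3 was the lowest. The mean was 52.7 ± 25.4 CPM in TP-3654 libraries and 86.0 ± 6.24 CPM in vehicle libraries (SD, n = 3 each). The log2 fold change was -0.71 (SE 0.39), with an adjusted p of 0.426 in edgeR's quasi-likelihood test with Benjamini-Hochberg adjustment. Without TP-3654 replicate 3 it was -0.38 (SE 0.14), with an adjusted p of 0.305 by the same test. Gata1 was thus lower with TP-3654 in 3 of 3 libraries by values that did not pass the correction.

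Klf1, the activator of adult beta-globin and many membrane genes (chr8:84901982-84905291), had 58.2, 46.2 and 5.86 CPM in TP-3654 replicates 1 to 3, against 97.7, 66.1 and 54.6 CPM in vehicle replicates 1 to 3. The groups overlapped through TP-3654 replicate 1. The mean of TP-3654 replicates 1 and 2 was 8.91 times the level in replicate 3, and the log2 fold change was -0.98 (95% interval -3.32 to 1.35) and -0.48 without replicate 3. The interval spans 0, so no direction was measurable for Klf1 at this spread.

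The other factors varied less. Zfpm1, the GATA1 cofactor FOG1, had 175, 169 and 116 CPM with TP-3654 and 212, 171 and 182 CPM with vehicle, with a log2 fold change of -0.30 (SE 0.16) and -0.13 without replicate 3. Gfi1b, a repressor needed for erythroid and megakaryocyte maturation, had 72.1, 55.5 and 34.0 CPM with TP-3654 and 90.7, 55.7 and 62.0 CPM with vehicle, with a log2 fold change of -0.37 (SE 0.31) and -0.12 without replicate 3. In both genes TP-3654 replicate 3 was lowest and the groups overlapped. Tal1, the GATA1 partner that stem cells also use, had a log2 fold change of 0.06 (SE 0.14), and Nfe2, a factor of globin control and platelet formation, -0.15 (SE 0.14), and these were 0.19 and -0.044 without replicate 3. Replicate 3 was the lowest library for all 6 factors, yet the mean of the other TP-3654 libraries over it was 1.37 for Tal1 and 1.27 for Nfe2, against 2.57 for Gata1 and 8.91 for Klf1. The same ratio was 1.49 for Zfpm1 and 1.88 for Gfi1b.

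The globins did not follow Klf1. Hba-a1, an adult alpha-globin (chr11:32283672-32284486), had 419, 118 and 331 CPM in TP-3654 replicates 1 to 3, against 249, 94.0 and 108 CPM in vehicle replicates 1 to 3. Hbb-bt, an adult beta-globin (chr7:103812524-103813923), had 238, 80.0 and 205 CPM in TP-3654 replicates 1 to 3, against 129.6, 58.5 and 57.5 CPM in vehicle replicates 1 to 3. In both, TP-3654 replicates 1 and 3 were high together, and TP-3654 replicate 2 lay inside the vehicle range. The log2 fold change was 0.94 (SE 0.66) for Hba-a1 and 1.09 (SE 0.57) for Hbb-bt, with adjusted p-values of 0.523 and 0.424 in edgeR's quasi-likelihood test with Benjamini-Hochberg adjustment. Without TP-3654 replicate 3 the values were 0.84 and 0.96, without TP-3654 replicate 1 they were 0.58 and 0.80, and without vehicle replicate 1 they were 1.52 and 1.59. Globin genes have near-identical copies, and the way reads were shared among copies is not given, so the level of a single copy is uncertain.

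The ratio of Hba-a1 to Hbb-bt stayed between 1.47 and 1.92 in all 6 libraries, while their shared level varied. Hba-a1, Hbb-bt and a beta-globin row named Hbb-b1 together held 0.0996%, 0.0284% and 0.0735% of all counts in TP-3654 replicates 1 to 3, against 0.0553%, 0.0221% and 0.0234% in vehicle replicates 1 to 3. The reference lists Hbb-b1 under chromosome 7 at 38285-39684. Whether that is a position on the assembled chromosome was not checked, and which beta-globin copy its reads came from was not tested. Globin RNA was therefore a small share of every library. The ratio of Hba-a1 to Klf1 was 7.20, 2.55 and 56.5 in TP-3654 replicates 1 to 3, against 2.55, 1.42 and 1.98 in vehicle replicates 1 to 3. The value in TP-3654 replicate 3 stood far above the other 5: this library had globin RNA with little of the regulator.

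**Figure D2:**
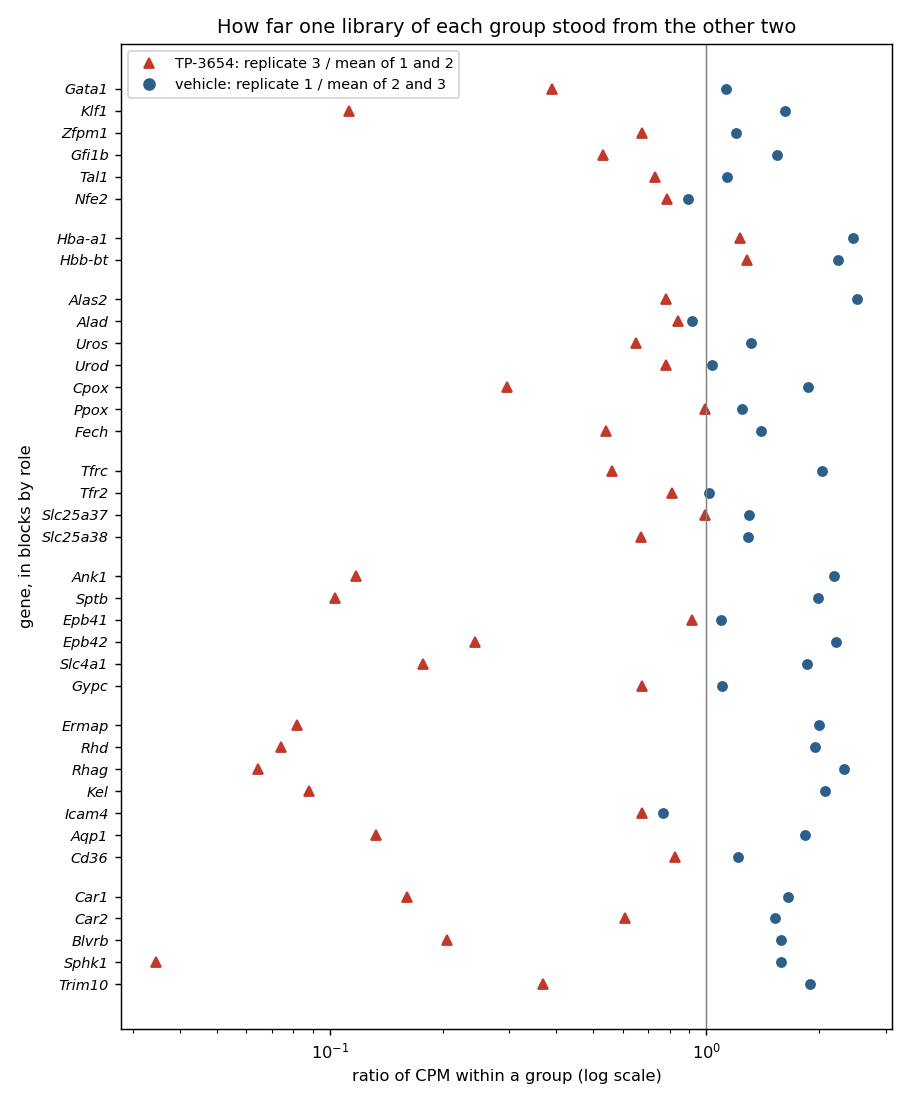
Level in TP-3654 replicate 3 against the other libraries of its group, and in vehicle replicate 1 against the other libraries of its group, for each erythroid gene on a log axis. The globins stand apart from the surface proteins and Klf1 in TP-3654 replicate 3. In vehicle replicate 1 both globins are above 2 times the other vehicle libraries, as are Alas2, Rhag, Epb42, Ank1, Kel and Tfrc.

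Of the 7 enzymes of haem synthesis, 3 had a fold change above 0 and 4 below. Alas2, the erythroid form of the first and rate-limiting enzyme, had 18.9, 3.13 and 8.62 CPM in TP-3654 replicates 1 to 3, against 8.72, 3.38 and 3.54 CPM in vehicle replicates 1 to 3. TP-3654 replicate 1 was high and the other TP-3654 libraries lay near the vehicle libraries, giving a log2 fold change of 0.97 (95% interval -0.90 to 2.83). Without TP-3654 replicate 1 it was 0.16, and without vehicle replicate 1 it was 1.56, so its size depended on those libraries. Alas2 followed the globins and not Klf1 in TP-3654 replicate 3, where its ratio to Klf1 was 1.47, with 0.325 and 0.0678 in the other TP-3654 libraries, against 0.0511 to 0.0892 in vehicle libraries.

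Cpox, coproporphyrinogen oxidase, had 121, 84.7 and 30.3 CPM in TP-3654 replicates 1 to 3, against 137, 87.7 and 58.6 CPM in vehicle replicates 1 to 3. It was low in TP-3654 replicate 3 and high in replicate 1 of both groups. Alad, the second enzyme of the pathway, had 92.7, 80.9 and 73.2 CPM with TP-3654 and 75.5, 73.0 and 91.7 CPM with vehicle, and its groups overlapped. The other enzymes, which all cells use to make haem, had log2 fold changes of -0.24 (Urod), -0.17 (Uros), -0.11 (Fech, which inserts the iron) and 0.21 (Ppox), with standard errors of 0.14 to 0.29, and -0.14, 0.0099, 0.13 and 0.21 without TP-3654 replicate 3. None was called, with or without TP-3654 replicate 3.

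In iron handling, Slc25a37, mitoferrin 1, which carries iron into mitochondria of erythroid cells (chr14:69241848-69285544), had 203, 170.2 and 185 CPM in TP-3654 replicates 1 to 3, against 172, 145 and 119.6 CPM in vehicle replicates 1 to 3. All 3 TP-3654 libraries were above vehicle replicates 2 and 3, and TP-3654 replicate 2 was just below vehicle replicate 1. The log2 fold change was 0.35 (SE 0.14) and 0.36 (SE 0.15) without TP-3654 replicate 3, with adjusted p-values of 0.284 and 0.399 in edgeR's quasi-likelihood test with Benjamini-Hochberg adjustment. The difference was of about the same size with and without that library, and smaller than the correction over all genes required.

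Tfrc, the transferrin receptor through which erythroblasts take up iron, had 537, 376 and 256 CPM in TP-3654 replicates 1 to 3, against 476, 333 and 135 CPM in vehicle replicates 1 to 3. The range within each group exceeded the difference between them, and the log2 fold change was 0.31 (95% interval -1.12 to 1.73). Tfr2, a sensor of loaded transferrin, had a log2 fold change of 0.03 (SE 0.12). Slc25a38, the mitochondrial carrier that supplies glycine for haem, had 40.6, 35.6 and 25.5 CPM with TP-3654 and 49.1, 38.6 and 37.6 CPM with vehicle, with a log2 fold change of -0.30 (SE 0.19) and -0.13 without TP-3654 replicate 3.

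Of the 6 genes of the membrane skeleton and its anchors, 4 varied widely between TP-3654 libraries. Slc4a1, band 3, the chloride-bicarbonate exchanger that ties the skeleton to the membrane (chr11:102348820-102365281), had 117, 12.6 and 11.5 CPM in TP-3654 replicates 1 to 3, against 31.3, 18.6 and 15.2 CPM in vehicle replicates 1 to 3. A single library, TP-3654 replicate 1, stood above all others, and TP-3654 replicates 2 and 3 were below all vehicle libraries. The log2 fold change of 1.11 (95% interval -1.96 to 4.19) therefore rests on replicate 1, and it was -0.85 without that library.

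Ank1, ankyrin 1, had 60.0, 30.4 and 5.30 CPM in TP-3654 replicates 1 to 3, against 59.2, 31.0 and 23.1 CPM in vehicle replicates 1 to 3. Sptb, erythroid beta-spectrin, had 74.5, 30.2 and 5.40 CPM in TP-3654 replicates 1 to 3, against 47.2, 27.0 and 20.8 CPM in vehicle replicates 1 to 3. Epb42, protein 4.2, had 11.7, 3.40 and 1.83 CPM in TP-3654 replicates 1 to 3, against 6.39, 2.92 and 2.85 CPM in vehicle replicates 1 to 3. In all 3 genes TP-3654 replicate 1 was near or above vehicle replicate 1, replicate 2 was within the vehicle range and replicate 3 was below every other library. Epb41, protein 4.1, which many cell types express, had a log2 fold change of 0.10 (SE 0.11), and Gypc, glycophorin C, -0.13 (SE 0.15). Those more widely expressed genes varied little, and the mean of TP-3654 replicates 1 and 2 over replicate 3 was 1.09 for Epb41, against 9.68 for Sptb.

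The surface and blood group genes stood lowest in TP-3654 replicate 3: their median level there was 0.0950 times the vehicle mean, with 1.39 and 0.815 times in the other TP-3654 libraries. Rhag, the Rh-associated glycoprotein (chr17:40811099-40844094), had 38.8, 24.6 and 2.04 CPM in TP-3654 replicates 1 to 3, against 45.0, 25.8 and 12.8 CPM in vehicle replicates 1 to 3. Its level in TP-3654 replicate 3 came from 40 counts, whose exact 95% Poisson interval covers 1.46 to 2.78 CPM for counting error only, so the gap to the next library lies beyond counting error. Rhd, the Rh antigen itself, had 31.6, 17.9 and 1.83 CPM in TP-3654 replicates 1 to 3, against 28.6, 16.5 and 12.9 CPM in vehicle replicates 1 to 3. Ermap, an erythroblast membrane protein that carries the Scianna blood group, had 121, 79.1 and 8.21 CPM in TP-3654 replicates 1 to 3, against 162, 102 and 60.0 CPM in vehicle replicates 1 to 3.

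Kel, the Kell blood group protease, had 31.8, 13.3 and 1.99 CPM in TP-3654 replicates 1 to 3, against 32.3, 17.5 and 13.8 CPM in vehicle replicates 1 to 3. Aqp1, the water channel aquaporin 1, had 257, 154 and 27.2 CPM in TP-3654 replicates 1 to 3, against 271, 169 and 127 CPM in vehicle replicates 1 to 3. For Rhag, Rhd, Ermap, Kel and Aqp1 alike, TP-3654 replicate 3 was the lowest library and the other TP-3654 libraries lay within or close to the vehicle range. Their log2 fold changes were -0.35, -0.17, -0.64, -0.43 and -0.37 with standard errors of 0.88 to 1.10, and 0.18, 0.35, -0.11, 0.086 and 0.12 without replicate 3. Of these 5 values, 4 changed sign, so that the direction depended on a single library, and Ermap kept its sign.

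Icam4, the Landsteiner-Wiener blood group adhesion protein (chr9:21029432-21030596), behaved differently. It had 14.4, 14.3 and 9.69 CPM in TP-3654 replicates 1 to 3, against 15.2, 18.4 and 21.3 CPM in vehicle replicates 1 to 3. All TP-3654 libraries were below all vehicle libraries, and vehicle replicate 3, not replicate 1, was the highest. The log2 fold change was -0.51 (SE 0.21) with an adjusted p of 0.283 in edgeR's quasi-likelihood test with Benjamini-Hochberg adjustment, and -0.35 with an adjusted p of 0.519 without replicate 3. Cd36, a fatty acid receptor of erythroid progenitors that other blood cells also carry, was at 0.464 to 1.01 CPM with TP-3654 and 0.322 to 0.720 CPM with vehicle, close to the limit of detection.

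Among the remaining enzymes, Car1, a carbonic anhydrase that marks early erythroid progenitors (chr3:14766214-14808365), had 238, 218 and 36.5 CPM in TP-3654 replicates 1 to 3, against 426, 277 and 239 CPM in vehicle replicates 1 to 3. The groups did not overlap, and TP-3654 replicate 3 was far below the rest. The log2 fold change was -0.94 (SE 0.78) and -0.46 (SE 0.24) without replicate 3, with adjusted p-values of 0.586 and 0.531 in edgeR's quasi-likelihood test with Benjamini-Hochberg adjustment.

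Sphk1, sphingosine kinase 1, whose product red cells store and release (chr11:116530836-116536675), had 19.0, 19.4 and 0.663 CPM in TP-3654 replicates 1 to 3, against 39.7, 26.2 and 23.9 CPM in vehicle replicates 1 to 3. This was the widest gap of the set: the mean of TP-3654 replicates 1 and 2 was 28.9 times the level in replicate 3, where 13 counts were found. The groups did not overlap, and the log2 fold change was -1.20 (SE 1.09) and -0.64 (SE 0.21) without replicate 3, with adjusted p-values of 0.622 and 0.260 in edgeR's quasi-likelihood test with Benjamini-Hochberg adjustment.

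Blvrb, biliverdin reductase B, had 83.7, 57.2 and 14.4 CPM in TP-3654 replicates 1 to 3, against 96.5, 64.0 and 58.3 CPM in vehicle replicates 1 to 3, with a log2 fold change of -0.49 (SE 0.68) and -0.051 without TP-3654 replicate 3. Car2, a carbonic anhydrase shared with other cells, had 711, 464 and 358 CPM with TP-3654 and 696, 474 and 442 CPM with vehicle, and its groups overlapped. Trim10, an erythroid gene needed for terminal differentiation, had 12.3, 2.44 and 2.70 CPM with TP-3654 and 7.18, 4.05 and 3.54 CPM with vehicle, highest in TP-3654 replicate 1. Across all 37 genes, 4 had groups that did not overlap, against 24.2% of all genes: Gata1, Icam4, Car1 and Sphk1, each lower with TP-3654. That is 4 of 37 where 10.9% of all genes were lower without overlap, and 0 of 37 were higher without overlap where 13.3% of all genes were.

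**Figure D3:**
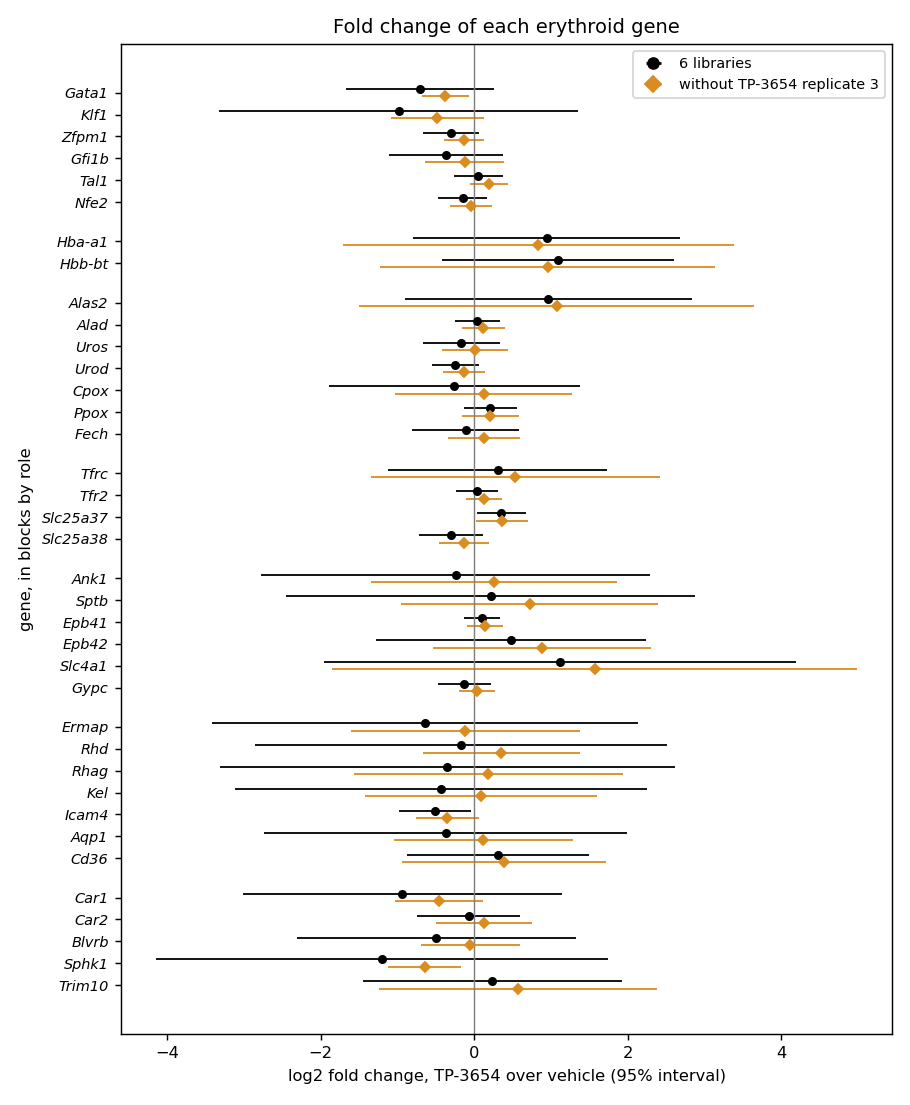
Log2 fold change of TP-3654 over vehicle for each erythroid gene with its 95% interval, from all 6 libraries (black circles) and without TP-3654 replicate 3 (orange diamonds), in blocks by role. Most intervals are wide and span 0. When that library is left out, the values of Rhag, Ermap, Kel and Aqp1 lie nearer 0, and those of Rhd, Sptb, Epb42 and Slc4a1 lie further from 0.

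By role, then, the libraries showed different gaps. Relative to the vehicle mean, the median of the transcription factors was 0.930, 0.847 and 0.552 in TP-3654 replicates 1 to 3, against 1.10, 0.918 and 0.925 in vehicle replicates 1 to 3. The median of the membrane skeleton genes was 1.97, 0.897 and 0.491 with TP-3654, against 1.47, 0.855 and 0.701 with vehicle. For the globins it was 2.85, 0.881 and 2.35 with TP-3654, against 1.62, 0.670 and 0.711 with vehicle. TP-3654 replicate 1 and vehicle replicate 1 were thus high in globins and skeleton together. In TP-3654 replicate 3 the globins were the only role with a median above the vehicle mean. Single genes of other roles were also above their own vehicle means there: Alas2, Slc25a37, Ppox, Epb41 and Cd36. Slc25a37 had 185 CPM there against a vehicle mean of 145.5 CPM, and Ppox 75.3 against 65.5 CPM.

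**Figure D4:**
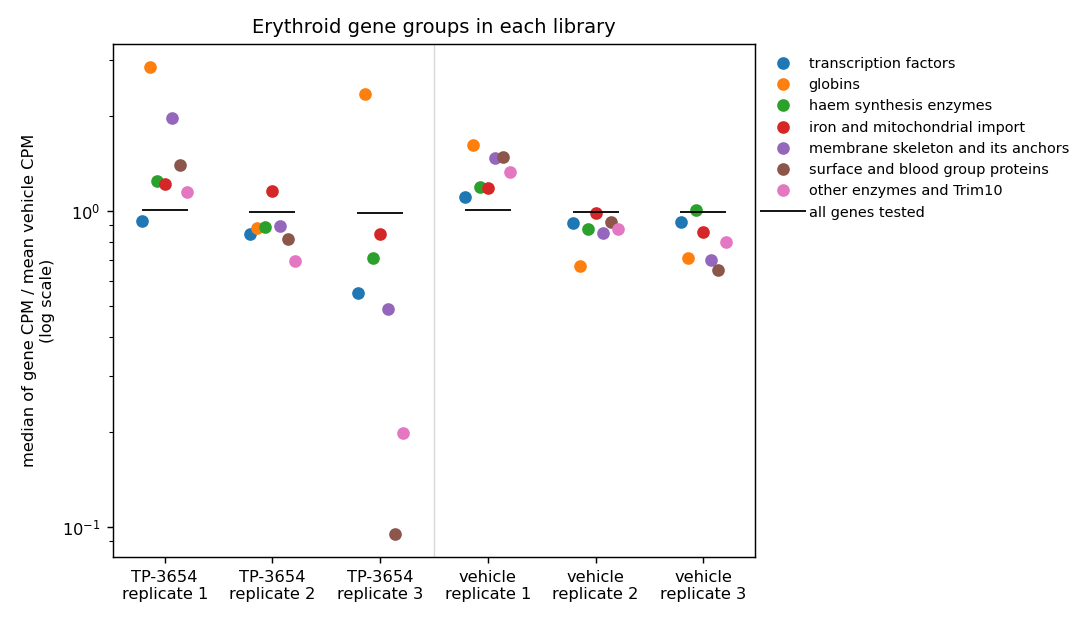
Median over the genes of each role of the level divided by the mean of the vehicle libraries, per library on a log axis, TP-3654 at the left and vehicle at the right of the grey line, with all genes tested as black bars. In TP-3654 replicate 3 the globins lie at 2.35 and the surface proteins at 0.0950.

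A wider list of 84 erythroid genes outside the 39 was read from the same fit, and 77 of them were tested. In edgeR's quasi-likelihood test with Benjamini-Hochberg adjustment 0 of the 77 were called. At an unadjusted p under 0.05, 2 were higher with TP-3654 and 9 lower, where 9.27% of all genes were higher and 6.47% lower. DESeq2 called 4 of them (Sox6, Stom, Alas1 and Gpx1), a share close to the 5.05% of all genes it called. The median log2 fold change was -0.08 over the 77 and 0.02 over all genes.

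Over the 77, groups did not overlap in 5 higher and 11 lower genes, where 13.3% and 10.9% of all genes did not. Both genes higher at an unadjusted p under 0.05 were among these 5. They were picked by p in the same fit, so this adds no support. Sox6, a repressor of embryonic globin that stem and progenitor cells also express, had 43.0, 25.1 and 38.8 CPM in TP-3654 replicates 1 to 3, against 22.6, 15.3 and 12.3 CPM in vehicle replicates 1 to 3. Its log2 fold change was 1.08 (SE 0.27), with an adjusted p of 0.131 in edgeR's quasi-likelihood test with Benjamini-Hochberg adjustment. Kit, the stem cell factor receptor used in the sort, had a log2 fold change of 0.43 (SE 0.13).

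Of the 9 lower genes, the largest fold changes were those of Stom (stomatin, a red cell membrane protein), Alas1 (the form of the first haem enzyme used outside red cells) and Gpx1 (glutathione peroxidase 1). Stom had 105, 102 and 48.8 CPM in TP-3654 replicates 1 to 3, against 203, 169.9 and 136 CPM in vehicle replicates 1 to 3. Alas1 had 102, 158 and 92.3 CPM in TP-3654 replicates 1 to 3, against 312, 169 and 181 CPM in vehicle replicates 1 to 3. Gpx1 had 1056, 1215 and 641 CPM in TP-3654 replicates 1 to 3, against 1457, 1577 and 1684 CPM in vehicle replicates 1 to 3. No TP-3654 library reached the lowest vehicle library in any of these 3, which were picked by p in the same fit. Their log2 fold changes were -0.99, -0.91 and -0.70, and -0.71, -0.76 and -0.47 without TP-3654 replicate 3. Alas1 and Gpx1 are also used by myeloid cells, and the summed granulocyte-monocyte progenitor genes given above were lower in all 3 TP-3654 libraries than in any vehicle library, a difference whose part in these values was not tested. The others were Spi1, which encodes the myeloid factor PU.1, at -0.49, Hfe, an iron regulator, at -0.52, and Mpp1, Slc48a1, Cd47 and Bsg between -0.37 and -0.31.

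Epor, the erythropoietin receptor, had 33.1, 25.2 and 5.46 CPM in TP-3654 replicates 1 to 3, against 43.0, 34.8 and 30.0 CPM in vehicle replicates 1 to 3. TP-3654 replicate 3 was the lowest library for Epor and for 42 of the 77 genes in all, against 30.9% of all genes. Its level was under 25% of the mean of the other TP-3654 libraries in 9 of the 77, against 4.6% of all genes. Epor had a log2 fold change of -0.76 (SE 0.66) and -0.30 (SE 0.18) without TP-3654 replicate 3, with adjusted p-values of 0.603 and 0.567 in edgeR's quasi-likelihood test with Benjamini-Hochberg adjustment.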

How the data were processed

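Per the labels' protocols, LSK cells were sorted from lineage-depleted bone marrow and poly(A) RNA went into NEBNext Ultra II libraries. The table the authors deposited holds unnormalized read counts by Entrez identifier, and a second one holds a comparison whose log2 fold changes and adjusted p-values are the authors' own, per the file headers. The submitters' processing notes name the tools HISAT2 2.1.0, SAMtools 1.9.0 and DESeq2 with the builds mm10 and GRCm38. Which program counted reads, and whether by strand, is not given in the sources used here, so overlapping genes and near-identical copies are uncertain.

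Of 15845 count rows, 15839 received a symbol, 12995 from the deposited comparison and 2844 from a RefSeq table of GRCm38.p6, which also gave coordinates. Genes with at least 10 counts in total (15267) entered edgeR 4.0.16 in R 4.3.3 with TMM factors, a robust quasi-likelihood fit and Benjamini-Hochberg adjustment, called under 0.05. Standard errors are the size of the log2 fold change divided by the root of the F statistic, and 95% intervals use the matching t quantile. Steps were tested on simulated data. P-values measure the spread between 3 libraries per group. The members and lists were chosen with earlier results of these data known. All 39 members are named, and of the wider list those with an unadjusted p under 0.05 and Epor; a few other genes of that list are not reported here. Alternatives were DESeq2 1.42.0, RLE factors, limma-voom (limma 3.58.1), filterByExpr, no filter, a replicate block and leaving out each library.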

Additional observations from a re-analysis of the deposited data

How the results depend on the processing

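Called erythroid genes were 0 of 37 under all 12 alternatives. Over all genes, 0 were called in edgeR with all libraries, against 665 in DESeq2, 5 with no low-count filter, 56 with the replicate number as a block, and 0 to 42 with 1 library left out (9, 42 and 37 without TP-3654 replicates 1, 2 and 3, and 0 without any vehicle library). Of the wider erythroid list, 4 were called in DESeq2, 1 with the replicate block (Stom) and 0 without any 1 library. Deviations of same-numbered libraries from their group means correlated at -0.024 to 0.041, and those of other pairs at -0.039 to 0.065. With 3 libraries per group these values cannot show whether the numbers pair the libraries. The median of the 37 fold changes ran from -0.45 (without TP-3654 replicate 1) to 0.13 (without TP-3654 replicate 3), and was 0.07 without vehicle replicate 1. Under limma-voom, log2 fold changes of opposite sign to the main ones were -0.34 for Sptb and -0.15 for Trim10, and under the replicate block -0.29 and -0.094. No sign changed under RLE factors, DESeq2, filterByExpr or no filter. Leaving out 1 library at a time changed the sign of 19 of 37 genes in at least 1 case, with log2 fold changes of -0.040 to 0.19 (Tal1), -0.054 to 0.15 (Alad), -0.40 to 0.0099 (Uros), -0.71 to 0.12 (Cpox), -0.43 to 0.13 (Fech), -0.054 to 0.74 (Tfrc), -0.056 to 0.13 (Tfr2), -1.07 to 0.26 (Ank1), -0.82 to 0.72 (Sptb), -0.62 to 0.97 (Epb42), -0.85 to 1.57 (Slc4a1), -0.24 to 0.035 (Gypc), -0.96 to 0.35 (Rhd), -1.05 to 0.18 (Rhag), -1.45 to 0.086 (Kel), -1.06 to 0.12 (Aqp1), -0.061 to 0.54 (Cd36), -0.39 to 0.16 (Car2), -0.94 to 0.61 (Trim10). The other 18 kept their sign. The cause was not tested. Depth limits the values of Cd36 and, in TP-3654 replicate 3, of Sphk1, Rhd, Rhag, Kel and Epb42, which rest on 12 to 40 counts there.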

Other observations

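Per kilobase of exon, levels of the erythroid genes in vehicle libraries spanned from Car1, Car2 and Hba-a1 at the top to Cd36 at the bottom. Car1 averaged 131.5 CPM per kilobase with TP-3654 and 252 CPM per kilobase with vehicle, Car2 211 and 222, and Hba-a1 356 and 185.2. The membrane skeleton genes Ank1 and Sptb stood near the lower end, with 2.36 and 3.02 CPM per kilobase with TP-3654 and 2.79 and 2.61 with vehicle. These means cover a wide spread between libraries, and the level of Hba-a1 is uncertain because the alpha-globin copies are near-identical.

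The authors' deposited table lists 36 of the 39 erythroid genes. It also holds gene IDs that the count table lacks, so it was not made from exactly these counts. Of the 36, 0 have an adjusted p under 0.05 in the authors' deposited table, where the smallest is 0.225 for Gata1 and 19 have a log2 fold change above 0. Stom, Gpx1, Sox6, Kit and Spi1 of the wider list were also read there, and each has an adjusted p under 0.05. Each also had an unadjusted p under 0.05 in edgeR's quasi-likelihood test above, so their passing adds no support. The rest of that list was not read there. The authors' deposited table holds 699 genes with an adjusted p under 0.05 in all.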
